A study of Arabidopsis thaliana with 6 samples.

Results

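NPQ4, STN8, CSK and TAPX encode 4 chloroplast proteins that handle excess light and the redox state of the thylakoid membrane, and their transcripts were followed here in bundle sheath cells (BSCs) and mesophyll cells (MCs) of Arabidopsis leaves. They are 4 of 13332 genes with a named probe set on the Affymetrix ATH1 array, and they were taken by gene name from the study's own list of genes differing between BSCs and MCs on these same arrays. That list holds genes past 1.5-fold in either direction with a p under 0.05 before adjustment, so the BSC against MC values of the 4 genes are a description and carry no test. On 3 arrays the RNA came from BSC protoplasts, and on the other 3 from MC protoplasts. All came from untreated Landsberg plants that carried GFP under the SCARECROW promoter. BSC protoplasts were picked by hand for their GFP fluorescence, MC protoplasts for the lack of it and for their larger diameter, and each array received the RNA of a pool of 20 protoplasts after 3 rounds of amplification. In such a pool, a lower signal from less transcript per cell and from fewer cells holding it cannot be told apart.

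Light absorbed beyond what carbon fixation can use acidifies the thylakoid lumen and over-reduces the electron carriers between the photosystems. NPQ4 is PsbS, the protein that senses the acid lumen and switches the antenna of photosystem II to releasing energy as heat. STN8 is the thylakoid kinase that phosphorylates core proteins of photosystem II, and CSK is a sensor kinase of cyanobacterial descent that couples the redox state of the carriers to transcription of plastid genes. TAPX is the thylakoid-bound ascorbate peroxidase, which reduces the hydrogen peroxide formed at photosystem I. NPQ4, STN8 and CSK were named through the study's list only, and TAPX also through the annotation of the array.

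The arrays of each cell type differed among themselves in signal. The 18 bacterial spike-in probe sets averaged from 7.47 to 10.5 log2 units on the BSC arrays and from 7.15 to 9.06 log2 units on the MC arrays. BSC array 7 stood apart, with the highest spike-in level and 78 probe sets at a log2 level of at least 5, against 406 to 1157 on the other arrays. The 3′ minus 5′ signal of the GAPDH control, a sign of RNA quality and amplification, was 2.39, 1.97 and 0.35 log2 units on BSC arrays 3, 5 and 7, against 1.1 to 1.51 on the MC arrays, with BSC array 7 the lowest of the 6 and a wider range between the BSC arrays. The median log2 level of 7 photosynthesis genes that the study had not picked, of 44 listed, was 6.42, 4.73 and 2.91 on BSC arrays 3, 5 and 7 and 5.98, 8.10 and 5.40 on MC arrays 4, 6 and 8. The part of these array differences in the values below was not tested. Values of the 4 genes are therefore given per array, also as a rank among the 22746 Arabidopsis probe sets of that array. The cell type labels could not be checked on bundle sheath, mesophyll or epidermis markers, since only 3 of 22 listed markers had a named probe set. These were the guard cell genes GC1 and FAMA and the phloem gene SWEET11, with mean log2 levels of 1.93, 2.06 and 3.28 in BSCs and 1.798, 1.88 and 3.25 in MCs.

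NPQ4 had the largest difference between the cell types among the 4 genes. Its log2(NREL), the log2 of the normalised expression level, was 7.91, 7.07 and 4.07 on BSC arrays 3, 5 and 7 and 8.21, 9.91 and 7.74 on MC arrays 4, 6 and 8. The levels of the cell types overlapped, because BSC array 3 lay above MC array 8. The mean was 6.35 ± 2.02 in BSCs and 8.62 ± 1.14 in MCs (SD, n = 3 each), a difference of −2.27 (SE 1.12) or a 4.82-fold lower level in BSCs. This was position 14 from the most negative difference of all 22746 probe sets. NPQ4 did not pass both thresholds of the study when refitted with limma. As the 4 genes were picked on this contrast, nothing is read from that. The spread between the BSC arrays, 3.84 log2 units, exceeded the difference itself, and BSC array 7 accounted for most of that range. Within its own array NPQ4 ranked 170, 164 and 361 from the brightest probe set on BSC arrays 3, 5 and 7, and 39, 23 and 65 on MC arrays 4, 6 and 8. By rank the cell types did not overlap, and NPQ4 belonged to the brightest probe sets in both.

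STN8, the photosystem II core kinase, was nearly even over the BSC arrays and spread widely over the MC arrays. It had log2(NREL) values of 3.52, 3.13 and 3.08 on BSC arrays 3, 5 and 7, and 4.51, 5.25 and 3.47 on MC arrays 4, 6 and 8. The highest BSC value and the lowest MC value crossed by 0.045 log2 units, while the other MC arrays lay well above every BSC array. The means were 3.24 ± 0.24 in BSCs and 4.41 ± 0.89 in MCs (SD, n = 3 each), which gave a difference of −1.17 (SE 0.45), or 2.25-fold lower in BSCs. On the rank scale STN8 stood at 2379, 2158 and 1777 on the BSC arrays, against 569, 1034 and 1400 on the MC arrays, without overlap. The MC arrays thus differed among themselves by 1.77 log2 units in STN8, while the BSC arrays differed by 0.44 log2 units. Without MC array 6, the highest of them, the difference between the cell types was −0.75.

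CSK, the sensor kinase, had the smallest but the most even difference of the 4 genes. Its log2(NREL) was 2.76, 2.34 and 2.59 on BSC arrays 3, 5 and 7 and 3.09, 3.27 and 3.37 on MC arrays 4, 6 and 8. On the BSC arrays CSK lay not far above the median level of all probe sets, which was 1.88, 1.97 and 2.06. The part of this low signal in the size and evenness of its difference was not tested. Every BSC array lay below every MC array, with a gap of 0.33 log2 units between the nearest arrays. The means of 2.57 ± 0.21 in BSCs and 3.24 ± 0.14 in MCs (SD, n = 3 each) differed by −0.68 (SE 0.15), or 1.60-fold. CSK therefore lay closest of the 4 genes to the fold threshold of 1.5 that was used to pick them. The pathway gene nearest to that threshold from outside, the antenna gene LHCB4.3, had a BSC level that was 0.767 of its MC level. CSK ranked 3824, 5858 and 4208 on the BSC arrays, against 2088, 2683 and 1552 on the MC arrays. It was the only one of the 4 genes whose highest level was not on MC array 6.

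TAPX, the thylakoid peroxidase, showed the widest gap between the cell types. It had log2(NREL) values of 3.62, 3.30 and 3.43 on BSC arrays 3, 5 and 7 and of 4.68, 6.49 and 4.86 on MC arrays 4, 6 and 8. The highest BSC array lay 1.07 log2 units below the lowest MC array. The mean was 3.45 ± 0.16 in BSCs and 5.35 ± 0.998 in MCs (SD, n = 3 each), a difference of −1.90 (SE 0.49) or 3.73-fold lower in BSCs, at position 54 of all probe sets. TAPX ranked 2285, 1845 and 1006 on the BSC arrays, and its ranks of 498, 527 and 468 on the MC arrays were nearly equal. MC array 6 raised the MC mean of the level but not of the rank.

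**Figure D1:**
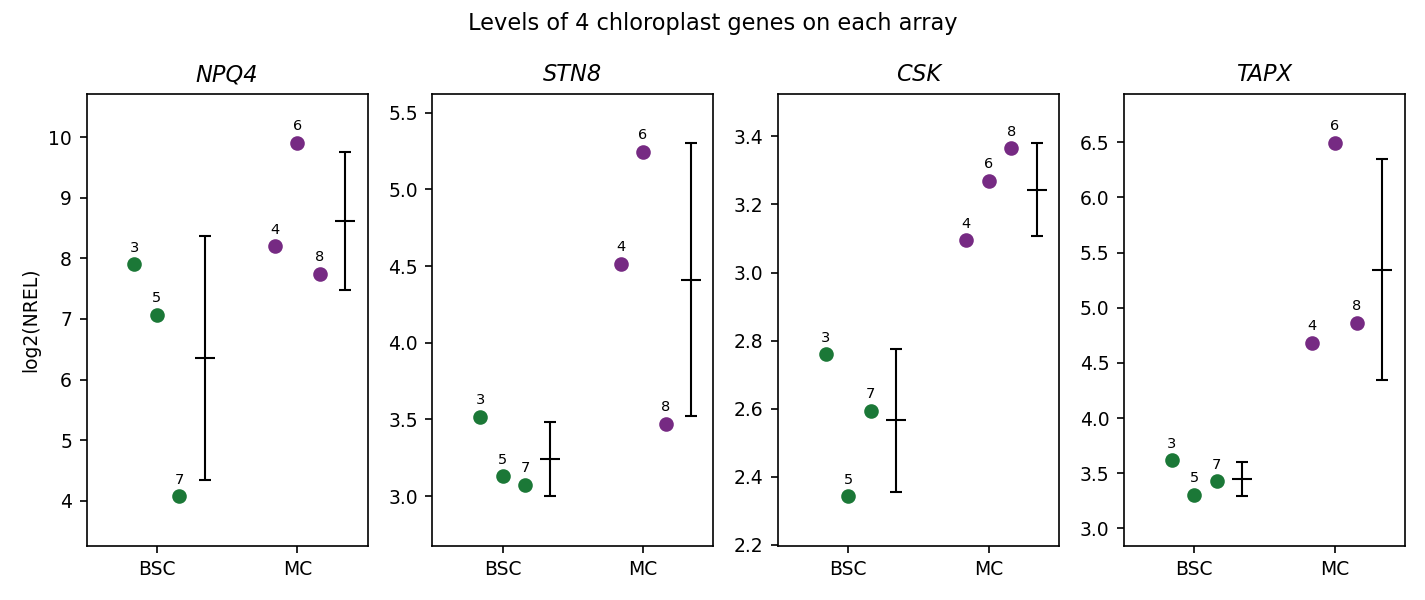
Log2(NREL) of NPQ4, STN8, CSK and TAPX (y axis, own scale per gene) on BSC arrays 3, 5 and 7 (green) and MC arrays 4, 6 and 8 (purple). Points are arrays and the black marks are means with SD (n = 3). CSK and TAPX do not overlap between the cell types, whereas BSC array 3 lies above MC array 8 for NPQ4 (7.91 and 7.74) and STN8 (3.52 and 3.47).

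Both on level and on rank the 4 genes were lower in BSCs, but they differed in how the arrays were ordered. The levels did not overlap for 2 of the 4 genes (CSK and TAPX), beside 2.85% of all probe sets lower on every BSC array. The ranks did not overlap for 4 of the 4 genes, beside 4.05% of all probe sets. In limma, 3 of the 4 genes passed both thresholds, beside 0.361% of all probe sets lower and 0.141% higher in BSCs. This count of the 4 genes was made in limma only. Over all probe sets the methods' t-test passed fewer than limma, 30 lower and 11 higher against 82 and 32. As the genes were picked on this contrast, nothing is read from these counts. NPQ4 and STN8 put the 6 arrays in the same order of level (Spearman's rho 1), with BSC array 7 lowest, then BSC 5, MC 8, BSC 3, MC 4 and MC 6. CSK and TAPX began with BSC array 5, then BSC 7, BSC 3 and MC 4, and swapped only MC arrays 6 and 8 at the top (rho 0.94). These orders rest on 6 arrays that share the cell type difference.

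BSC array 7 behaved differently for the 4 genes. It gave the lowest NPQ4 and STN8 levels of the 6 arrays, and its NPQ4 rank was also the lowest. Its STN8 rank of 1777 and TAPX rank of 1006 were nonetheless the highest of the BSC arrays. Without this array the differences were −1.13 for NPQ4, −1.09 for STN8, −0.69 for CSK and −1.89 for TAPX. NPQ4 changed most, from −2.27. All 4 moved by less than the pooled SD within cell types, which for NPQ4 was 1.64 with BSC array 7 included.

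**Figure D2:**
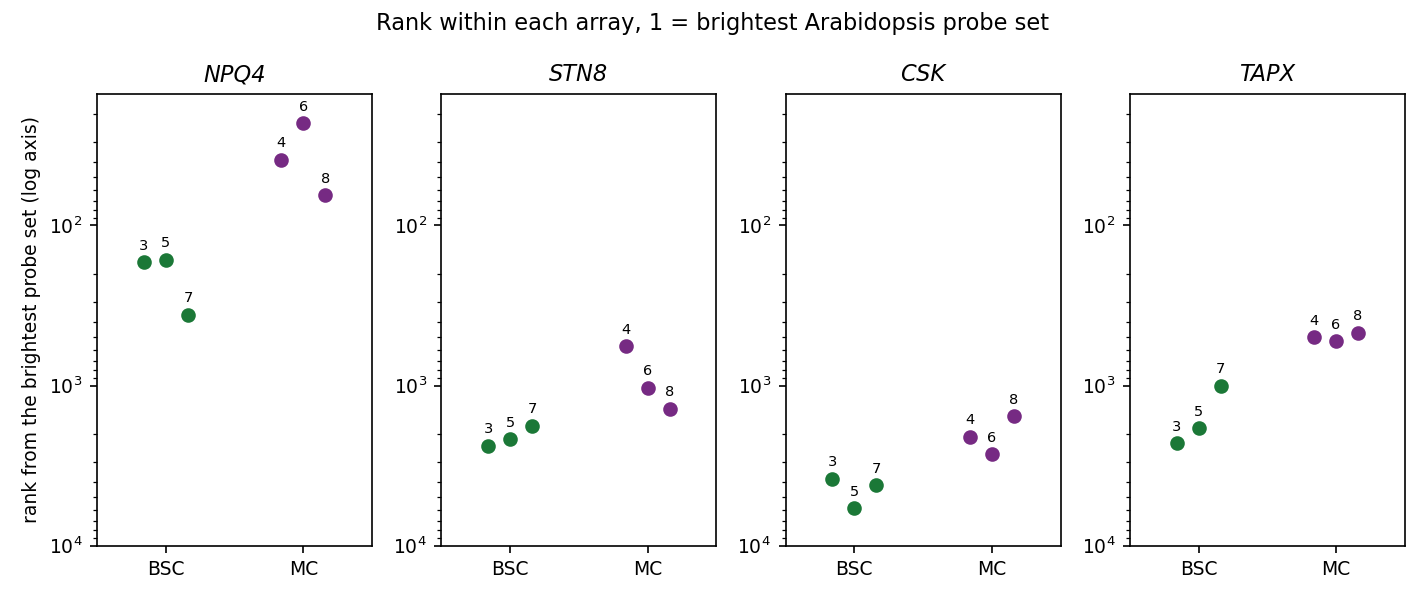
Rank of NPQ4, STN8, CSK and TAPX within each array among 22746 probe sets (log axis, 1 at the top is the brightest). Points are BSC arrays (green) and MC arrays (purple), labelled by number, and for each gene every BSC array lies below every MC array, for NPQ4 at 164 to 361 on BSC arrays against 23 to 65 on MC arrays.

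Arrays of like spike-in level were also set side by side, as a description of single arrays. BSC array 3 had a spike-in level of 7.47 and MC array 6 one of 7.15, and the log2 differences, BSC minus MC, were −2.002 for NPQ4, −1.73 for STN8, −0.51 for CSK and −2.88 for TAPX. BSC array 5 and MC array 4 had spike-in levels of 9.06 each, and the differences between them were −1.14 for NPQ4, −1.38 for STN8, −0.75 for CSK and −1.38 for TAPX. Between BSC array 5 and MC array 8, with a spike-in level of 8.84, they were −0.67, −0.34, −1.02 and −1.56 in the same order of genes. All 4 genes were thus lower on the BSC array in each of these pairs, by very unequal amounts for STN8. As the genes were picked on this contrast in these arrays, that common direction is no check on the array signal. No MC array came near the spike-in level of 10.5 of BSC array 7. With the spike-in level as a covariate, an alternative chosen after the data were seen, the log2 differences were −1.50 for NPQ4, −0.97 for STN8, −0.64 for CSK and −1.67 for TAPX.

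**Figure D3:**
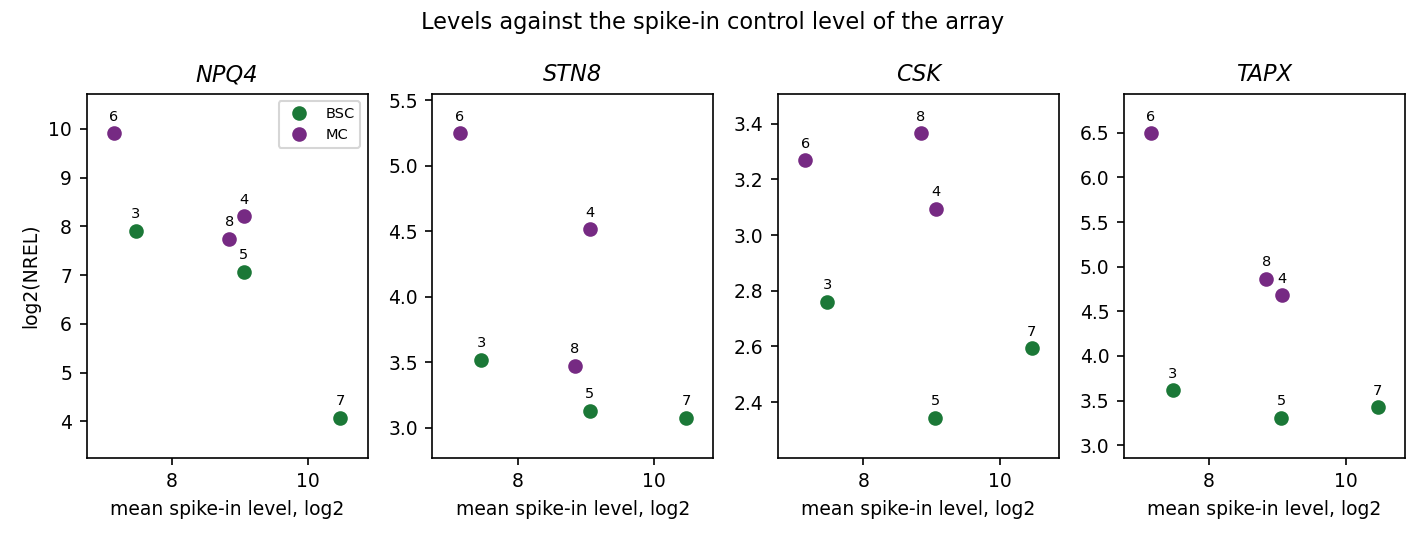
Log2(NREL) of the 4 genes (y axis, own scale per gene) against the mean log2 level of 18 spike-in probe sets on the same array (x axis). BSC arrays are green and MC arrays purple, labelled by number. BSC array 7 has a spike-in level of 10.5 with no MC array near it. At like spike-in levels the BSC array lies below the MC array in every panel, for genes picked on this contrast.

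Photosynthesis genes outside the study's list also ranked lower on the BSC arrays. Of the 7 that the study had not picked, 6 ranked lower on every BSC array than on every MC array, beside the 4.05% of all probe sets, the exception being RCA, the Rubisco activase. By level, 0 of the 7 were free of overlap. The part of this in the values of the 4 genes was not tested.

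The other genes of the same pathways mostly had lower mean levels in BSCs over all 6 arrays, but only CURT1C passed the thresholds. Of 103 genes in 7 pathway lists, 30 had a named probe set, and 24 of these were neither among the 4 genes nor in the study's list. Their median log2 fold change was −0.71, beside 0.01 for all probe sets. Of the 24, 22 were negative and 2 positive, beside 45.9% negative over all probe sets. The median and the count of negative genes rested largely on MC array 6, without which the median was −0.10 and 13 of the 24 were negative. In limma 1 of the 24 passed both thresholds in the lower direction and 0 in the higher direction, beside 0.361% and 0.141% of all probe sets. Among all 22746 probe sets, 0 had an adjusted p under 0.05 in limma (365 before adjustment) and 0 in the methods' t-test (515 before adjustment). The levels of 5 of the 24 genes and the ranks of 4 of the 24 were lower on every BSC array, beside the 2.85% and 4.05% above. Among the 5, CURT1D and TSP9 were separated narrowly. Their highest BSC arrays read 1.90 and 2.37, and their lowest MC arrays 1.91 and 2.40. By rank both overlapped. No gene was named from the lists of photosystem II repair proteases and tocopherol synthesis, which were not analysed here.

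Around NPQ4, 4 of the 22 other genes of quenching and the xanthophyll cycle had a named probe set and 0 passed. ROQH1, which relaxes slow quenching, had log2(NREL) values of 1.94, 1.76 and 1.68 on the BSC arrays, against 2.20, 3.78 and 2.25 on the MC arrays. The groups did not overlap, although MC array 6 alone stood far above the rest, and the log2 fold change of −0.95 had a 95% interval from −2.05 to 0.15 in limma. On BSC arrays 3, 5 and 7 ROQH1 lay near or below the median level of all probe sets, which was 1.88, 1.97 and 2.06. LCNP, the plastid lipocalin needed for slow quenching, had a log2 fold change of −0.63 (95% interval −2.07 to 0.80), and PGRL1B, a factor of cyclic electron flow, −0.26 (−0.88 to 0.36). The enzymes that make and use zeaxanthin, NPQ1 and ABA1, were not analysed here.

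Around STN8, 10 of the other 16 genes for thylakoid kinases, their substrates and the shaping of grana had a named probe set. All 10 had negative differences, from −1.89 to −0.10, beside 45.9% negative over all probe sets. CURT1D, at −0.10, had means of 1.86 in BSCs and 1.96 in MCs, near the median level of all probe sets. CURT1C, which bends the membrane at the margin of grana, was the only one of the 10 to pass. Its log2(NREL) was 4.47, 4.05 and 3.70 on BSC arrays 3, 5 and 7 and 4.66, 5.61 and 4.57 on MC arrays 4, 6 and 8. By level, every BSC array was lower than every MC array. By rank the cell types overlapped, at 1503, 1078 and 644 on BSC arrays 3, 5 and 7 and 508, 855 and 587 on MC arrays 4, 6 and 8. The means were 4.07 ± 0.39 in BSCs and 4.95 ± 0.58 in MCs (SD, n = 3 each), with a log2 fold change of −0.87 (SE 0.34, 95% interval −1.72 to −0.02), past both thresholds before adjustment and with an adjusted p of 1.0 in limma. The call was lost when any of BSC arrays 5 and 7 and MC arrays 4 and 6 was left out.

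CAS, the thylakoid calcium sensing receptor and a substrate of STN8, was singled out after its values had been seen. Its log2(NREL) was 3.66, 3.71 and 2.96 on the BSC arrays, against 4.46, 5.74 and 3.75 on the MC arrays, without overlap of the cell types. The log2 fold change was −1.21 (SE 0.53, 95% interval −2.53 to 0.11). It passed the thresholds after quantile normalisation (−1.17) and without MC array 8 (−1.66). The largest difference of this list belonged to LHCB4.1, a phosphorylated antenna protein of photosystem II, with a log2 fold change of −1.89 (SE 1.4). That gene was also taken up after its values were seen, and its standard error was the largest of the list; BSC array 7 read 3.40, whereas BSC arrays 3 and 5 read 8.12 and 7.79. The kinase STN7 and the phosphatases PPH1 and PBCP were not analysed here.

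Around CSK, 1 of the other 8 genes of plastid transcription had a named probe set. This was PTK, a plastid casein kinase that phosphorylates the transcription machinery, with log2(NREL) values of 4.77, 2.54 and 3.03 on the BSC arrays, against 3.17, 6.15 and 3.40 on the MC arrays. The groups overlapped widely, and the log2 fold change of −0.79 had a 95% interval from −3.22 to 1.64. SIG1, the sigma factor that acts with CSK, was not analysed here.

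Around TAPX, 3 of the other 19 genes for ascorbate peroxidases and peroxide removal had a named probe set and 0 passed. SAPX, the stromal counterpart of TAPX, had log2(NREL) values of 2.72, 2.13 and 2.28 on the BSC arrays, against 2.14, 2.47 and 2.42 on the MC arrays. The groups overlapped, with BSC array 3 the highest of all and BSC array 5 the lowest. SAPX lay not far above the median level of all probe sets, which was 1.88 to 2.06 on the 6 arrays. The part of this low signal in its fold change was not tested. The log2 fold change of SAPX was 0.03 (SE 0.19, 95% interval −0.44 to 0.50), beside −1.90 for TAPX, and the difference between the 2 genes was not tested. GR, the plastid glutathione reductase that feeds ascorbate regeneration, had a log2 fold change of −0.95 (95% interval −2.51 to 0.61), and CCS, the copper chaperone of superoxide dismutase, −0.28 (−1.03 to 0.47). APX1, APX2 and APX3 were not analysed here.

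Of the genes for plastid thiol redox, 8 of 19 had a named probe set, and 2 of these, FTRB and MSRB1, were in the study's list. FTRB, a subunit of ferredoxin-thioredoxin reductase, had a difference of −1.11 and MSRB1, a methionine sulfoxide reductase, of −0.71, which are no independent evidence as they were picked on these arrays. None of the other 6 passed. NTRC, the NADPH-dependent thioredoxin reductase, had a log2 fold change of −0.997 (95% interval −3.23 to 1.24), the thioredoxin TRXM2 −0.87 (−4.23 to 2.49) and the peroxiredoxin PRXIIE 0.19 (−0.37 to 0.74).

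**Figure D4:**
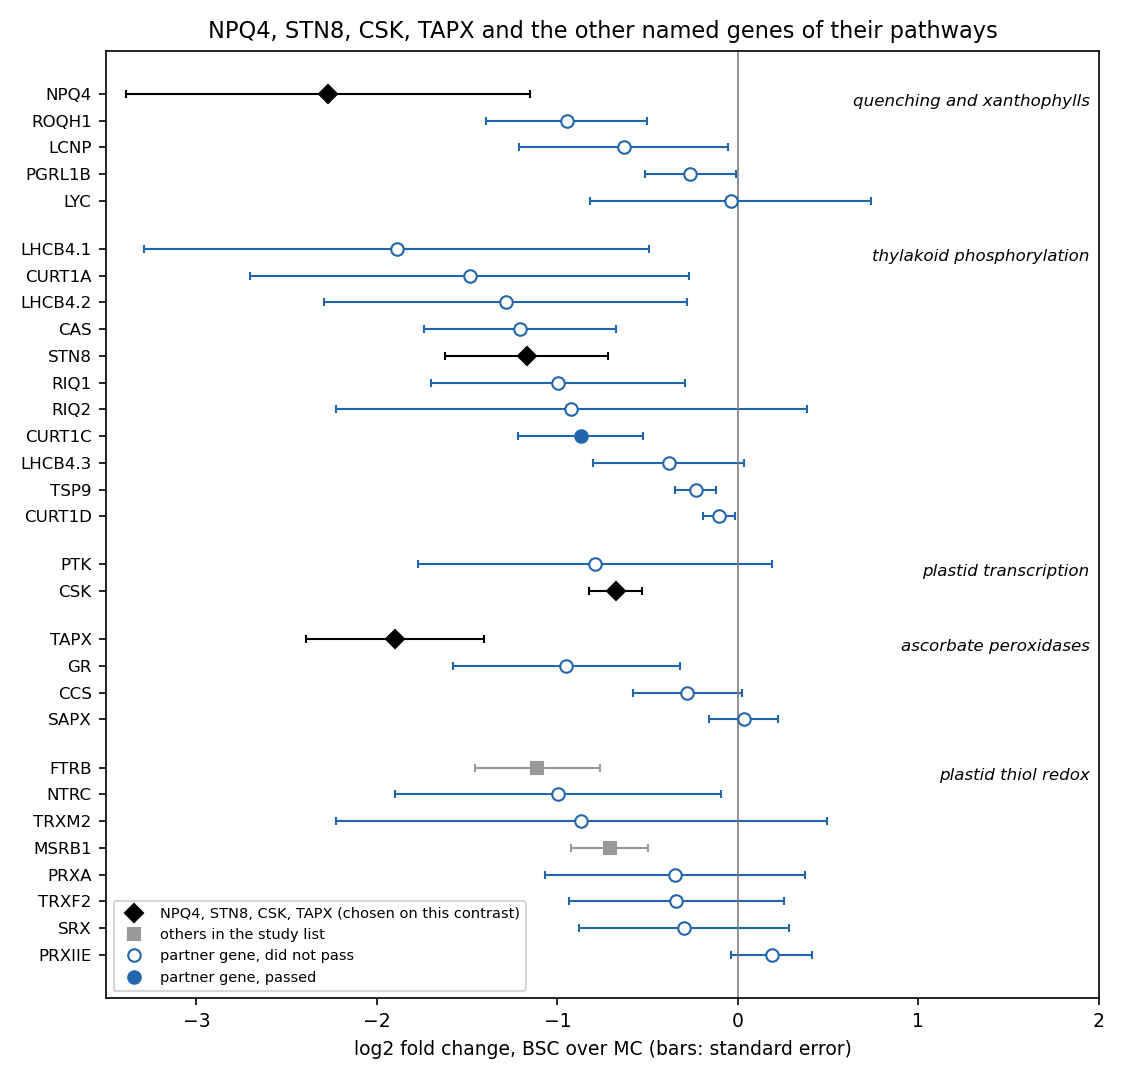
Log2 fold change of BSC over MC with its standard error (x axis) for NPQ4, STN8, CSK and TAPX (black), 2 other genes of the study's list (grey) and 24 pathway genes (blue, filled where both thresholds were passed), grouped by pathway. All but SAPX (0.03) and PRXIIE (0.19) lie below 0, and CURT1C (−0.87) is the only filled blue point.

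The genes whose levels ran most like each of the 4 over the 6 arrays were then listed, with Pearson's r as the measure and as a description, since all share the same arrays and array signal levels. For NPQ4 they were LHCA3 (r = 0.993), an antenna gene of photosystem I, PSBQA (r = 0.991), whose protein helps to split water, both in the study's list, and AT5G58680 (r = 0.990). LHCA3 read 7.16, 6.58 and 3.67 on BSC arrays 3, 5 and 7 and 7.46, 8.99 and 6.597 on MC arrays 4, 6 and 8, so it also overlapped between the cell types and was lowest on BSC array 7. For STN8 they were AT3G02760 (r = 0.991), AT1G44790 (r = 0.988) and DET2 (r = 0.986), a brassinosteroid synthesis gene in the study's list. For TAPX they were AT3G07080 (r = 0.984), FTRB (r = 0.977) and the glycosyltransferase gene UGT88A1 (r = 0.976). For CSK they were AT5G43960 (r = 0.985), AT5G14030 (r = 0.974) and AT2G33180 (r = 0.970). AT3G02760, AT3G07080 and AT2G33180 had mean levels of 1.67, 1.76 and 1.61 in BSCs and 1.96, 2.03 and 1.69 in MCs. These lay near or below the median level of all probe sets. Genes with r of at least 0.95 numbered 32 for NPQ4, 28 for STN8 and 26 for TAPX and 4 for CSK. The search ran over 13482 named probe sets on only 6 arrays. How many unrelated genes would reach such an r was not tested, so nothing is read from these genes or counts. No gene of the photosynthesis list was among the 3 genes most like STN8, CSK or TAPX. Most of the 44 listed had no named probe set and could not appear, so nothing is read from this absence.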

How the data were processed

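RNA of 3 BSC and 3 MC pools was hybridised to Affymetrix ATH1 arrays. The authors summarised the scanner files with the robust multi-average method (RMA) in the Partek software and deposited 1 log2 value for each probe set and array. The deposited values were not equally distributed on the arrays. Their SD over the Arabidopsis probe sets ran from 0.60 on BSC array 7 to 1.23 on MC array 6. The submitters' processing notes name version 6.6 and the paper names another. The deposited values have no counts, and precision is set by the number of arrays.

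Arrays were grouped by their labels and called by the number in their titles. The 64 control probe sets were left out of the fit, and 22746 remained. Gene names came from the annotation of the array with numbers matched to the TAIR10.1 gene table (13436 probe sets) and through the study's list for 46 more. Of that list only names were used, not its p-values and fold changes. The 503 probe sets of several genes stayed unnamed. Where a gene had several probe sets, the brightest was used.

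Differences were tested 2-sided in limma 3.58.1 under R 4.3.3, by lmFit followed by eBayes with Benjamini-Hochberg adjustment over all probe sets, and checked on simulated data. An exact permutation test of 3 against 3 arrays cannot go below p = 0.1. A gene passed at an unadjusted p under 0.05 and a fold of at least 1.5. The named genes were the 4 members and genes of 7 pathway lists that passed, or up to 3 with the smallest p in lists with none. Added to these were 11 neighbours of the members in their pathways (2 with a named probe set) and the 3 genes most like each member. Members and lists were chosen with earlier results of these data known.

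Alternatives were quantile normalisation, median centring, array weights, a trended prior, the methods' t-test, filters on mean log2 level (2 and 3), and fits that dropped 1 array at a time. The spike-in level as a covariate and ranks in place of levels were chosen after the data were seen.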

Additional observations from a re-analysis of the deposited data

How the results depend on the processing

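The log2 differences of the 4 genes kept their sign in every setting and moved by less than the pooled SD within cell types. For NPQ4 this was a wide limit of 1.64, so its change from −2.27 to −1.13 without BSC array 7 still lay within it. As the genes were picked on this contrast, the kept sign is no independent check. For NPQ4 the difference was −1.97 after quantile normalisation and −1.23 with array weights, and leaving out an array gave −3.05 (without BSC array 3) to −1.13 (without BSC array 7). For STN8 it ranged between −1.64 (without MC array 8) and −0.75 (without MC array 6), for CSK between −0.84 (array weights) and −0.57 (without BSC array 5), leaving out an array giving −0.77 to −0.57, and for TAPX between −2.23 (without MC array 4) and −1.32 (without MC array 6).

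The count of the 24 pathway genes that passed in the lower direction, 1 in the limma fit, was 0 with median centring, with the methods' t-test and with filters at a mean level of 2 and 3, 2 with the spike-in covariate, 3 with array weights, and 0 to 2 with an array left out. The genes also changed: CAS passed after quantile normalisation and ROQH1 with a trended prior, in place of CURT1C, and none passed in the higher direction in any setting. Their median, −0.71, was −0.56 after quantile normalisation, −0.71 after median centring, −0.36 with array weights, −0.79 with the filter at 2, −0.20 with the spike-in covariate, and between −1.08 (without MC array 8) and −0.10 (without MC array 6).

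Over all probe sets, 82 lower and 32 higher in BSCs became 184 and 72 after quantile normalisation, 286 and 599 with array weights, 30 and 11 in the methods' t-test, 17 and 5 with the filter at 3, and 128 and 573 with the spike-in covariate. Leaving out an array gave 59 to 199 lower and 18 to 335 higher. The count of lower probe sets was 199 without BSC array 3, and that of higher ones 335 without BSC array 7. The array weights did not converge, and the other causes were not tested. No paired analysis was made, because the labels do not say which BSC and MC pools, if any, were collected together.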
